A study of Mus musculus with 8 samples.

Results

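Car2, Car3, Car9 and Car12 are 4 of the 31053 genes listed for each library of this single-cell RNA sequencing study of the mouse intervertebral disc, and were chosen by gene name. They belong to the carbonic anhydrases, a family with 16 genes in the list. Their levels are described across cell classes named from marker genes, at both ages of the study.

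The study sequenced whole intervertebral discs of Tagln-CreERt2;R26tdTomato mice on the 10x Chromium platform. The groups were 8-week discs and P10 (postnatal day 10) discs, both after tamoxifen at postnatal day 5. Every animal therefore carried the same inducible Cre, driven from the Tagln (transgelin, SM22-alpha) gene, and the same Cre-dependent tdTomato reporter, and no untreated or Cre-negative group was analysed here. Lumbar discs and proximal tail discs were pooled, so the level of the spine cannot be told apart. Muscle and blood vessels were trimmed off and blood was washed away before enzymatic digestion, and no sort is named. Each age has 4 sample entries but 1 matrix with no map from cells to samples, so each age is 1 library without replicates. No p-value is given. All intervals below are 95% intervals of counting error only, and a difference between ages has no replicate check.

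After filtering, 6350 cells were kept at 8 weeks and 6999 at P10, with medians of 14689 and 18300 unique molecular identifiers (UMIs, counted RNA molecules) per cell. Nucleus pulposus-like (NP-like) cells numbered 2305 at 8 weeks and 305 at P10. Their class was named without any carbonic anhydrase, from notochordal markers. Krt8, a simple-epithelial keratin of notochordal cells, stood at 2827 CPM (the gene's UMIs per 1000000 UMIs of the same cells) in 8-week NP-like cells against 15.3 CPM in 8-week chondrocyte-like cells, and at 3596 CPM in P10 NP-like cells against 5.21 CPM in P10 chondrocyte-like cells. T (brachyury), the notochord transcription factor, stood at 1479 against 17.5 CPM at 8 weeks and at 1322 against 2.40 CPM at P10 in the same order of classes. The other large classes were chondrocyte-like (1386 cells at 8 weeks, 4889 at P10) and hypertrophic chondrocyte-like (1013 at 8 weeks, 263 at P10). Of the tendon fibroblast-like cells, 1 came from 8-week discs and 767 from P10 discs. A further 1260 8-week cells, and no P10 cell, fell in 2 clusters with tendon markers that were left unnamed. The 2 libraries share 10 kept cell barcodes.

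Carbonic anhydrases interconvert carbon dioxide and water with bicarbonate and a proton. Car2 and Car3 encode cytosolic enzymes. CAR2 is a highly active isoform known from red cells, osteoclasts and kidney, whereas CAR3 has low hydratase activity and is known for its abundance in skeletal muscle and adipose tissue. Car9 and Car12 encode membrane-anchored enzymes with the catalytic domain outside the cell. The nucleus pulposus is an avascular tissue that relies on glycolysis and exports lactate and protons, and CA9 is a well-known target of hypoxia-inducible factor (HIF).

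Car2 (ENSMUSG00000027562) lies at chr3:14886273-14900770 and Car3 (ENSMUSG00000027559) at chr3:14863512-14872523, neighbours on the plus strand of GRCm38. Car9 (ENSMUSG00000028463) lies at chr4:43506966-43513729 and Car12 (ENSMUSG00000032373) at chr9:66713686-66766845, also on the plus strand. Promoter sequences are shown for Car9 and Car12 only, because the promoter set used had no entry for Car2 or Car3. They run from 250 bases before to 50 bases after the start of the gene in the RefSeq annotation of GRCm38.p6, plus strand, 5′ to 3′, at chr4:43506776-43507075 for Car9 and chr9:66713436-66713735 for Car12. Capitals mark the single match to the HIF core motif ACGTG, read on the minus strand.
Car9: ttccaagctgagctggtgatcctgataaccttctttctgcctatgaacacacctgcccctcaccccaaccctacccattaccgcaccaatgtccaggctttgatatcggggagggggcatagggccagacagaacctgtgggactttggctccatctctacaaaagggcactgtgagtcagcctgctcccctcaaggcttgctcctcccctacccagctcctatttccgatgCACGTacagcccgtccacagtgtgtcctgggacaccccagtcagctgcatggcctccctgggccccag
Car12: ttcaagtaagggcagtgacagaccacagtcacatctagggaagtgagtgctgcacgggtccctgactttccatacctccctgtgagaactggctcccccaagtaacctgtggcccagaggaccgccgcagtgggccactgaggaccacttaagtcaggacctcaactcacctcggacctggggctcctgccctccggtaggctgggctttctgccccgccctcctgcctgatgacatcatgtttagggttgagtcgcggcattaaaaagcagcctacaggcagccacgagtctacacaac

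The window of Car9 held 1 ACGTG, 18 bases before the start, and the window of Car12 held none. Neither window held GCGTG, the other HIF core, TATAAA, or the T-box sequence AGGTGTGA. Searched on both strands, ACGTG was present in 19.6%, GCGTG in 32.4%, TATAAA in 13.6% and AGGTGTGA in 1.28% of 32851 mouse promoters of the same length. A match of 5 letters at such a frequency is a description of the sequence and no measure of binding.

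Car2, Car3 and Car9 were higher in NP-like cells than in all other cells of the same library at both ages, and Car12 was lower. At 8 weeks Car2 stood at 35.4 CPM (1554 UMIs) in NP-like cells against 1.20 CPM (79 UMIs) in all other cells, a log2 ratio of 4.88 (4.55 to 5.22). Car3 stood at 18292 CPM in 8-week NP-like cells against 183 CPM in the other 8-week cells, a log2 ratio of 6.64 (6.61 to 6.67). For Car9 the 8-week levels were 51.2 CPM in NP-like cells and 3.43 CPM in the others, a log2 ratio of 3.90 (3.70 to 4.10). Car12, in contrast, stood at 0.865 CPM (38 UMIs) in 8-week NP-like cells against 41.1 CPM (2699 UMIs) in the other 8-week cells, a log2 ratio of -5.57 (-6.07 to -5.11). Of 13449 genes with at least 100 UMIs in that comparison, 15.7% were at least 2-fold higher and 18.7% at least 2-fold lower in NP-like cells. At that threshold 3 members were higher and 1 lower, and Car3 had a larger ratio than 99.7% of genes.

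At P10 the directions were the same and the sizes differed. Car3 stood at 21114 CPM in P10 NP-like cells against 53.8 CPM in the other P10 cells, a log2 ratio of 8.62 (8.58 to 8.65), above 99.9% of genes. Car2 stood at 12.5 CPM (84 UMIs) in P10 NP-like cells against 3.98 CPM (538 UMIs) in the others, a log2 ratio of 1.65 (1.30 to 1.98). Of those 538 UMIs, 358 lay in 8 chondrocyte-like cells with red-cell markers. Without cells carrying markers of another class the log2 ratio of Car2 was 3.31 (2.92 to 3.70) at P10 and 5.13 (4.77 to 5.52) at 8 weeks. Car9 stood at 62.6 CPM in P10 NP-like cells against 16.6 CPM in the others, a log2 ratio of 1.92 (1.77 to 2.07). Car12 stood at 1.04 CPM (7 UMIs) in P10 NP-like cells against 13.8 CPM in the others, a log2 ratio of -3.73 (-5.05 to -2.68). Again 3 members were at least 2-fold higher and 1 at least 2-fold lower, against a background of 17.0% higher and 19.0% lower among 13105 genes.

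**Figure D1:**
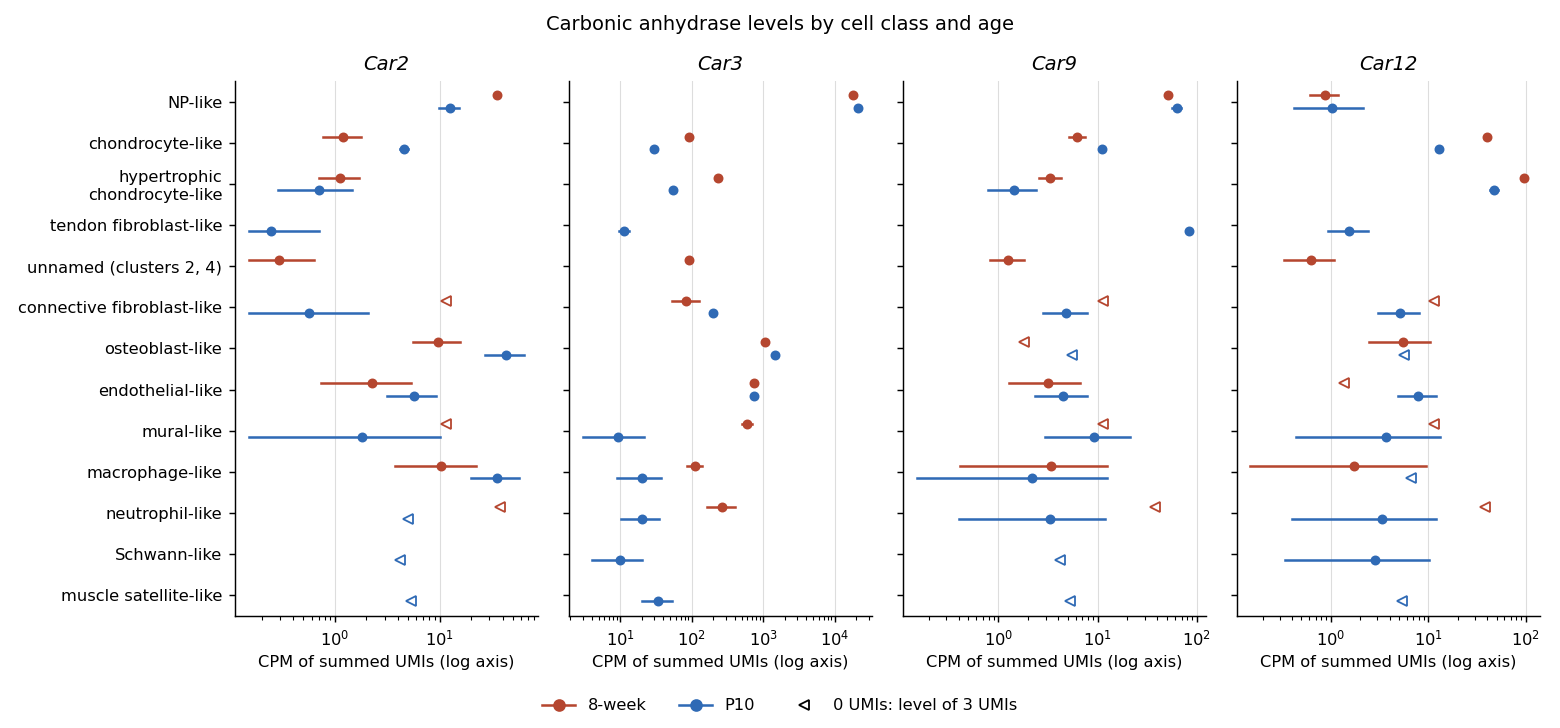
Level of each member in CPM of summed UMIs (log axis) by cell class and age, with 95% Poisson intervals; an open left-pointing triangle marks a class with 0 UMIs, drawn at the level of 3 UMIs. Car3 peaks in NP-like cells at both ages (18292 CPM at 8 weeks and 21114 CPM at P10). Car12 peaks in the class named hypertrophic (95.2 and 47.2 CPM). Most of its 8-week UMIs in that class lie in cluster 0, which had only 17.0 CPM of Col10a1. Car9 is also high in P10 tendon fibroblast-like cells (83.7 CPM).

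Between ages, within NP-like cells, Car2 was the member that differed most. Its level was 35.4 CPM (33.6 to 37.2) in 8-week NP-like cells and 12.5 CPM (9.94 to 15.4) in P10 NP-like cells, a log2 ratio of 1.51 (1.19 to 1.84). The median of 11325 genes in that comparison was 0.35, so most genes had a higher CPM in 8-week NP-like cells. Car3 had a log2 ratio of -0.21 (-0.22 to -0.20) and Car9 of -0.29 (-0.44 to -0.14), both below that median. Car12, with 38 and 7 UMIs, had a log2 ratio of -0.26 (-1.44 to 1.14), an interval that covers no difference. Of the 3 members with enough UMIs, Car2 was at least 2-fold higher and none was at least 2-fold lower, where 15.2% of genes were higher and 2.83% lower.

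The NP-like class is made of different clusters at the 2 ages, and the age ratio of Car3 and of Car9 depends on the cluster. Cluster 3 held 929 8-week cells against 13 P10 cells, cluster 8 held 382 against 1, and cluster 18 held 2 against 193, whereas clusters 5 and 13 held cells of both ages. In the shared clusters Car2 was again higher at 8 weeks. In cluster 5 it stood at 18.5 CPM in 8-week cells against 8.00 CPM in P10 cells, a log2 ratio of 1.21 (0.45 to 2.10). In cluster 13 it stood at 32.6 CPM in 8-week cells against 5.48 CPM in P10 cells, a log2 ratio of 2.57 (1.60 to 3.74), on only 9 UMIs at P10. At least 2-fold higher at 8 weeks were 17.0% of genes in cluster 5 and 13.0% in cluster 13, and 2.35% and 2.03% were at least 2-fold lower. The highest Car2 level among NP-like clusters was 67.2 CPM in 8-week cluster 3, whose leading genes include Inmt, Wnt16 and Irf7, followed by 38.2 CPM in 8-week cluster 8. P10 cluster 18, the largest P10 NP-like cluster, stood at 18.1 CPM.

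Car2 molecules were found in 30.8% of 8-week NP-like cells and in 19.0% of P10 NP-like cells. Neutrophil-like cells, a class that should lack these genes, had a Car2 UMI in 0 of 28 cells at 8 weeks and 0 of 108 at P10, which allows shares of up to 10.7% and 2.78%, at median depths of 1911.5 and 3218 UMIs against 15449 and 17519 in NP-like cells. With every cell thinned to 2000 UMIs, the shares were 7.43% of 8-week NP-like cells and 3.38% of P10 NP-like cells. Thinning left out shallower cells, 97 and 9 of the NP-like cells at 8 weeks and P10, and 14 and 24 of the neutrophil-like cells. The order of the ages is the same at both depths.

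Outside NP-like cells Car2 was sparse, and a few cells decided its level. In 8-week discs the next levels were 10.3 CPM (6 UMIs) in macrophage-like and 9.67 CPM (16 UMIs) in osteoblast-like cells, whose intervals overlap. Of the 6 macrophage-like UMIs 4 came from 1 cell, and that class stood at 3.45 CPM without it. In P10 discs osteoblast-like cells stood at 42.8 CPM (27.1 to 64.3), macrophage-like cells at 35.4 CPM (20.2 to 57.4) and NP-like cells at 12.5 CPM, so the NP-like class was not the highest for Car2 at that age. However, 18 of the 23 UMIs of the P10 osteoblast-like class came from 1 cell, which had 1 UMI of the osteoblast markers, and the class stood at 9.81 CPM without it. P10 macrophage-like cells stood at 22.3 CPM without the cell with most Car2. In P10 chondrocyte-like cells Car2 stood at 4.55 CPM. There 358 of 471 UMIs (76.0%) lay in 8 cells that carried at least 10 UMIs of red-cell markers, and the level was 1.09 CPM without those 8 cells. The same 8 cells held 438 of the 455 Car1 UMIs of the class. Car1 is the other cytosolic isoform known from red cells.

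Car3 had the widest span of levels across classes. Every 8-week NP-like cell (100%) and 99.0% of P10 NP-like cells had a Car3 molecule, and thinned to 2000 UMIs the shares were 99.6% and 96.3%. Neutrophil-like cells had a Car3 UMI in 53.6% of 28 cells at 8 weeks and 9.26% of 108 cells at P10. After thinning the shares were 28.6% (8.39 to 58.1) of 14 cells at 8 weeks and 2.38% (0.29 to 8.34) of 84 cells at P10. These shares were higher in the 8-week library. Whether they measure a background of free RNA in other classes was not tested. The median 8-week NP-like cell held 20450 CPM of Car3, with 6448 at the 10th and 37412 at the 90th percentile. The median P10 NP-like cell held 26229 CPM, with 4936 and 45061 at the same percentiles. The spread among cells of 1 age was thus far larger than the difference between ages.

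The spread followed the clusters in part. Car3 stood at 30556 CPM in 8-week cluster 3 and at 31845 CPM in P10 cluster 18, and at 17539 CPM in 8-week cluster 8. In the clusters shared by both ages the levels were lower, 14277 CPM in 8-week and 12158 CPM in P10 cells of cluster 5, and 8273 CPM in 8-week and 8985 CPM in P10 cells of cluster 13. The age ratio of Car3 was 0.23 (0.21 to 0.25) in cluster 5 and -0.12 (-0.15 to -0.09) in cluster 13 on the log2 scale, so its sign depended on the cluster. Both ratios were below the median genes of these clusters, 0.35 and 0.29.

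**Figure D2:**
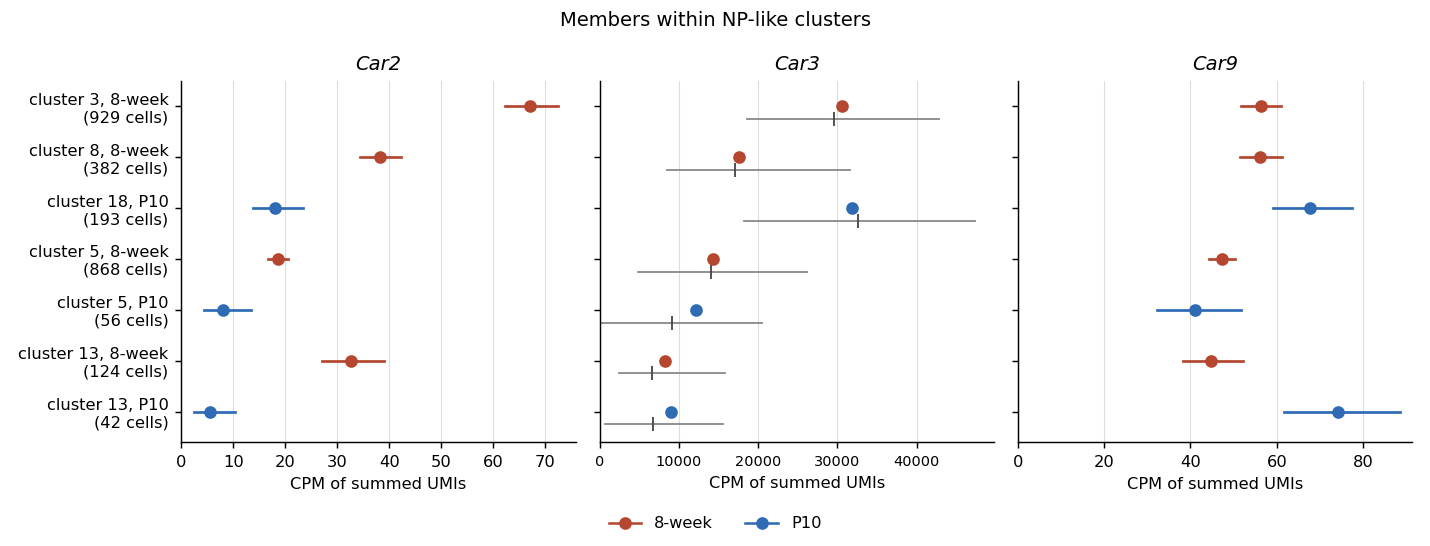
Car2, Car3 and Car9 in the NP-like clusters, in CPM of summed UMIs with 95% Poisson intervals, by age; in the Car3 panel a grey line spans the 10th to 90th percentile of single cells with a tick at the median. Car2 is highest in 8-week cluster 3 (67.2 CPM), and Car3 in 8-week cluster 3 (30556 CPM) and P10 cluster 18 (31845 CPM).

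With all cells of a class kept in, the ratio of Car3 to Krt8, a keratin of NP-like cells, was similar to that of NP-like cells in the cartilage classes and some others. It differed in further classes. Per Krt8 UMI there were 6.47 Car3 UMIs in 8-week NP-like cells and 5.87 in P10 NP-like cells. The ratio was 5.94 (5.26 to 6.73) in 8-week and 5.78 (5.27 to 6.34) in P10 chondrocyte-like cells. In hypertrophic chondrocyte-like cells it was 5.98 (5.54 to 6.46, ending just below the 8-week NP-like ratio) at 8 weeks and 5.08 (4.13 to 6.32) at P10. Endothelial-like cells, at 12.3 at 8 weeks and 4.07 at P10, and connective fibroblast-like cells, at 3.58 at P10, lay outside that range. The ratio was 7.03 (6.19 to 8.02) in the unnamed 8-week cells and 6.87 (4.42 to 11.2) in 8-week mural-like cells. In P10 tendon fibroblast-like cells it was 7.0 (4.36 to 11.8). The intervals of the unnamed, mural-like and tendon fibroblast-like cells cover the NP-like ratio of the same age. Per Krt19 UMI, the other NP keratin, there were 12.1 Car3 UMIs in 8-week NP-like cells and 8.63 in P10 NP-like cells. That ratio was 7.74 (6.75 to 8.90) in 8-week and 8.96 (8.02 to 10.0) in P10 chondrocyte-like cells, so the 8-week class lay below 8-week NP-like cells. Mural-like cells, at 7.18 (4.58 to 11.8), and connective fibroblast-like cells, at 2.2 (1.0 to 5.20), also lay below them at 8 weeks. In 8-week hypertrophic chondrocyte-like cells the Krt19 ratio was 11.3 (10.2 to 12.5), an interval that covers that of 8-week NP-like cells. Cells with at least 10 UMIs of NP keratins were kept in these ratios and held much of the Car3 of several classes. The intervals do not count this concentration. In P10 chondrocyte-like cells 56.5% of Car3 UMIs lay in 9 such cells. In P10 hypertrophic chondrocyte-like cells 78.1% lay in 1 such cell, and in 8-week mural-like cells 84.2% lay in 1. The share was 15.6% in 8-week chondrocyte-like and 15.1% in unnamed cells. Ratios without such cells are not given here. In P10 endothelial-like cells 98.6% of Car3 UMIs lay in 5 such cells, and the level was 734 CPM with and 11.9 CPM without them. In 8-week endothelial-like cells 84.4% lay in 5 such cells, and the level was 751 CPM with and 127 CPM without them. In 8-week hypertrophic chondrocyte-like cells 68.0% lay in 22 such cells, and the level was 235 CPM with and 77.9 CPM without them.

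The chondrocyte-like class is made of different clusters at each age, 1, 6 and 15 at 8 weeks and 16, 19, 20, 25, 26 and 27 at P10, and only 7 of its 1386 8-week cells lie in a P10 cluster. Its age ratios for Car3, Car9, Car12 and Car2 therefore compare different clusters of 2 libraries. Chondrocyte-like cells had 90.9 CPM of Car3 at 8 weeks and 30.1 CPM at P10, a log2 ratio of 1.59 (1.51 to 1.68), and without cells carrying NP keratins the levels were 76.9 CPM at 8 weeks and 13.1 CPM at P10. The hypertrophic chondrocyte-like class had 235 and 55.3 CPM at the 2 ages, a log2 ratio of 2.08 (1.96 to 2.21). At P10, 425 of its 544 Car3 UMIs (78.1%) lay in 1 cell with NP keratins, and without such cells the levels were 77.9 CPM at 8 weeks and 12.2 CPM at P10. Most 8-week cells of this class lie in clusters 0 and 10, which hold no P10 cell. In the shared cluster 9 the log2 ratio was 3.46 (3.33 to 3.60), with cells carrying NP keratins kept in. The NP markers also differed there, with Krt8 at 81.8 CPM in 8-week and 10.9 CPM in P10 cells of cluster 9. T stood at 45.5 CPM in 8-week and 5.29 CPM in P10 cells of that cluster. In the same libraries NP-like cells made up 36.3% of cells at 8 weeks and 4.36% at P10, and neutrophil-like cells had 264 CPM of Car3 at 8 weeks and 19.9 CPM at P10. The part of these values in the higher Car3 of the cartilage classes at 8 weeks was not tested. In chondrocyte-like cells Car3 and Car12 were at least 2-fold higher and Car2 at least 2-fold lower at 8 weeks, the last of these no longer so without the 8 P10 cells with red-cell markers. In hypertrophic chondrocyte-like cells Car3 and Car12 were higher. The background in these age comparisons was 29.0% of genes at least 2-fold higher and 5.95% lower in chondrocyte-like cells, and 25.5% and 4.91% in hypertrophic chondrocyte-like cells.

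Osteoblast-like cells stood apart. They had 1063 CPM of Car3 at 8 weeks and 1449 CPM at P10, and almost no keratin. At 8 weeks their 1759 Car3 UMIs stood beside 15 Krt8 UMIs, a ratio of 117 (70.9 to 210.0). The Car3 of the 8-week class was spread over cells, with at least 10 UMIs in 41 of 94 cells and 124 UMIs (7.05%) in the highest cell, and the level was 1050 CPM without that cell. Adipocyte markers summed to 1 UMI in the 8-week class. At P10 the picture was different, since 508 of 778 Car3 UMIs (65.3%) lay in 1 of 28 cells. That cell held 280 UMIs of adipocyte markers and 1 UMI of osteoblast markers. It also carried at least 10 UMIs of muscle satellite markers, and 0 of skeletal muscle markers. Without this cell the P10 class stood at 540 CPM (477 to 608). The age ratio of the class was -0.45 on the log2 scale with this cell and 0.99 once cells with other classes' markers were left out, against 8.13% of genes at least 2-fold higher and 16.3% lower at 8 weeks.

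**Figure D3:**
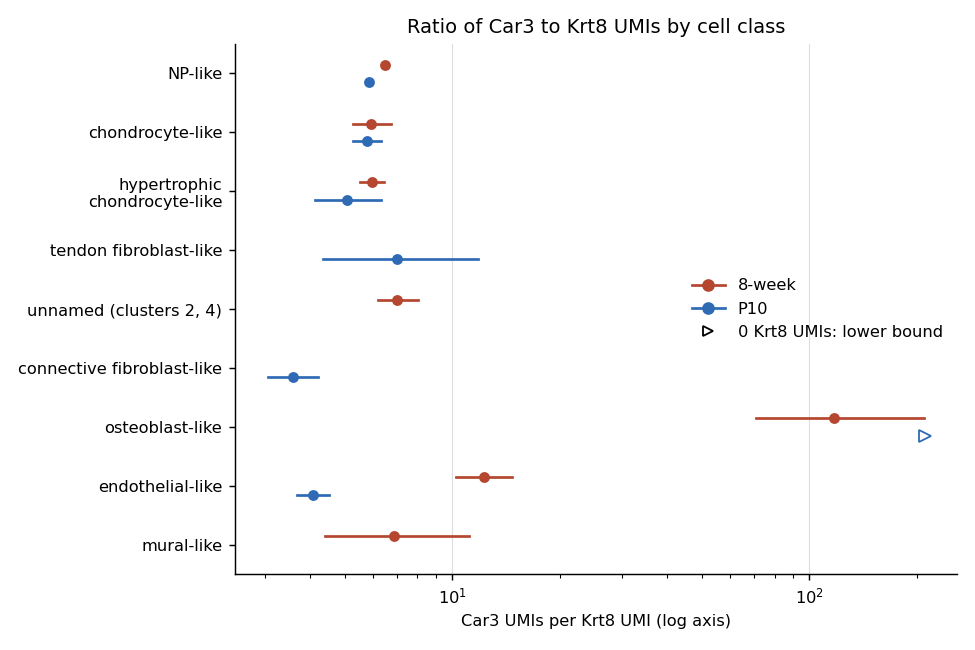
Car3 UMIs per Krt8 UMI by class and age, in classes with at least 100 Car3 UMIs, with 95% intervals; a right-pointing triangle is a lower bound where no Krt8 UMI was counted. With cells carrying NP keratins kept in, the cartilage classes lie near the NP-like ratios of 6.47 at 8 weeks and 5.87 at P10. Osteoblast-like cells lie at 117 at 8 weeks.

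Car9 was shared between NP-like cells and other cells, and the other cells differed between ages. Its level was 51.2 CPM (2250 UMIs) in 8-week NP-like cells and 62.6 CPM (422 UMIs) in P10 NP-like cells. A Car9 UMI was found in 42.9% of 8-week and 46.2% of P10 NP-like cells, and in 9.38% and 12.2% after thinning. In neutrophil-like cells it was found in 0 of 28 at 8 weeks and in 1.85% at P10. The NP-like clusters lay close together, between 44.8 and 56.3 CPM at 8 weeks and between 41.1 and 74.2 CPM at P10, a narrower range than that of Car2 or Car3. In cluster 5 the age ratio was 0.20 (-0.14 to 0.57), which covers no difference, and in cluster 13 it was -0.73 (-1.07 to -0.38), both on the log2 scale.

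At P10 the highest level of Car9 among the classes was in tendon fibroblast-like cells, at 83.7 CPM (78.7 to 89.0), above the 62.6 CPM (56.8 to 68.8) of P10 NP-like cells. It was found in 56.3% of those tendon fibroblast-like cells, and in 16.0% after thinning, which left out 12 of them. Within the chondrocyte-like class Car9 was concentrated in P10 cluster 26, which is led by the joint-forming growth factor gene Gdf5 and by Rbp4. This cluster of 395 cells stood at 71.7 CPM, had a Car9 UMI in 65.1% of cells, and held 748 of the 1158 Car9 UMIs of the P10 chondrocyte-like class. The other P10 chondrocyte-like clusters stood between 0.912 and 8.80 CPM.

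The 8-week unnamed cells, which carry tendon markers, had little Car9, at 1.54 CPM in cluster 2 and 1.03 CPM in cluster 4. No cluster with tendon markers held enough cells of both ages, so this is a difference between clusters of 2 libraries. Among 8-week cells outside the NP-like class, Car9 was highest in cluster 10, at 17.1 CPM, which was named hypertrophic chondrocyte-like from Ibsp, Alpl and Spp1 but had only 36.3 CPM of Col10a1 and 3.84 CPM of Ihh, and in chondrocyte-like cluster 6, at 13.1 CPM. Over the whole chondrocyte-like class, whose clusters differ between the ages, it stood at 6.19 CPM at 8 weeks and 11.2 CPM at P10, a log2 ratio of -0.85 (-1.13 to -0.58). Osteoblast-like cells had 0 Car9 UMIs at both ages.

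Car12 was found mainly in the cartilage classes. It was highest in hypertrophic chondrocyte-like cells, at 95.2 CPM (1882 UMIs) at 8 weeks and 47.2 CPM (464 UMIs) at P10, followed by chondrocyte-like cells at 39.7 CPM and 12.9 CPM. A Car12 UMI was found in 49.5% of 8-week and 56.3% of P10 hypertrophic chondrocyte-like cells. Those cells had median depths of 18406 and 38300 UMIs, and after thinning the shares were 14.1% and 7.31%, so the order of the ages turned with depth. Thinning left out 10 and 3 of these cells. In neutrophil-like cells Car12 was found in 0 of 28 at 8 weeks and 1.85% at P10.

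The hypertrophic class joins clusters that differ in Car12. At 8 weeks 1796 of its 1882 UMIs lay in cluster 0, at 139 CPM, with a UMI in 71.8% of cells. Cluster 0 expressed Alpl (287 CPM), the phosphatase of mineralizing cartilage, and Ihh (85.2 CPM), but only 17.0 CPM of Col10a1, the collagen that defines hypertrophic chondrocytes. Its place in the class thus goes against that marker. In cluster 9, where Col10a1 stood at 16155 CPM in 8-week cells and 2972 CPM in P10 cells, Car12 stood at 23.6 CPM in 8-week cells against 47.2 CPM in P10 cells. The log2 ratio there was -1.0 (-1.36 to -0.66), opposite in sign to the 1.01 (0.86 to 1.16) of the whole class. In cluster 9, 16.4% of genes were at least 2-fold higher and 9.15% at least 2-fold lower at 8 weeks. In 8-week cluster 10 Car12 stood at 1.18 CPM. That cluster was high in Alpl (2482 CPM) and low in Col10a1 (36.3 CPM), Ihh (3.84 CPM) and Panx3 (34.6 CPM), so its name too goes against defining markers.

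Among chondrocyte-like clusters Car12 was also uneven. At 8 weeks it reached 181 CPM in cluster 15, a group of 49 cells led by cell-cycle genes, with a UMI in 91.8% of cells, and 53.5 CPM in cluster 1, but 0.667 CPM in cluster 6. At P10 it was highest in cluster 20, another cycling cluster, at 43.8 CPM, followed by 29.3 CPM in cluster 27 and 10.5 CPM in cluster 16. P10 cluster 26, where Car9 was high, had 0.959 CPM of Car12. The 8-week cartilage clusters with high Car12 were low in Car9, with 0.465 CPM of Car9 in cluster 0, 0.534 CPM in cluster 1 and 0 UMIs among the 49 cells of cluster 15. P10 cluster 20 had both genes, with 7.40 CPM of Car9. For the class as a whole, across its different clusters, the age ratio of Car12 was 1.62 (1.49 to 1.75) on the log2 scale, against a median gene of 0.51. Outside cartilage the next level was 7.90 CPM in P10 endothelial-like cells, from 21 UMIs in 4 cells.

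**Figure D4:**
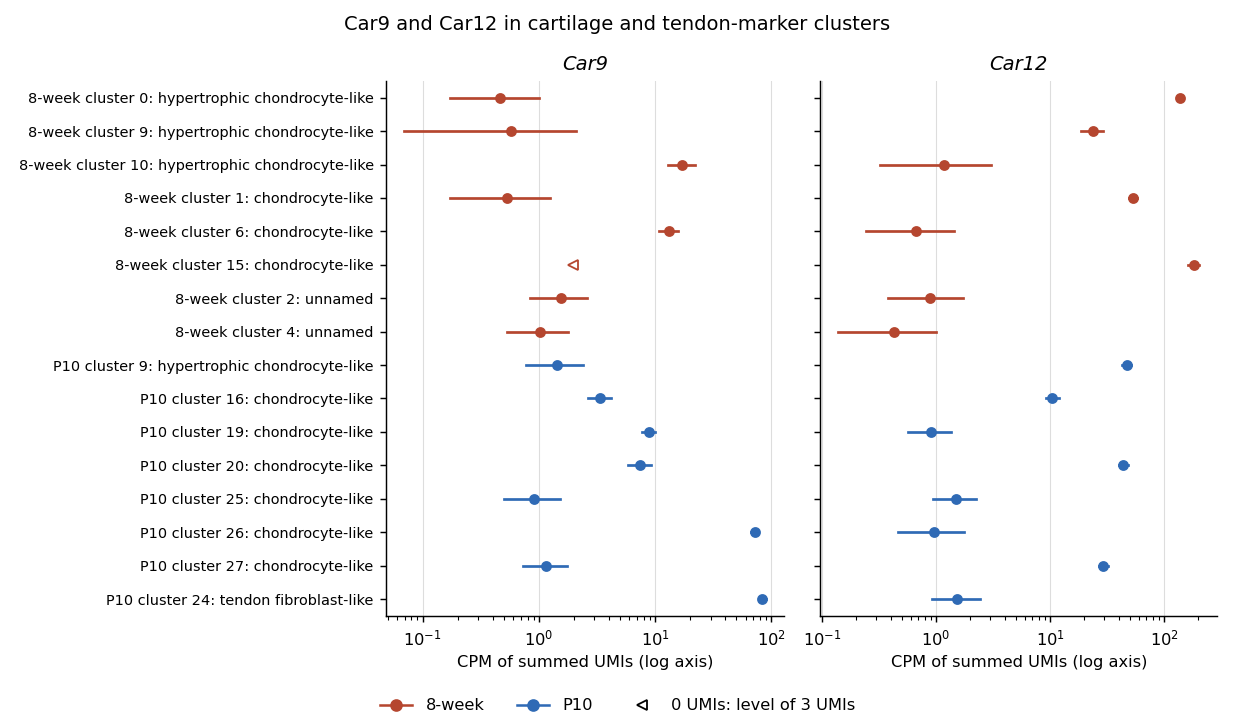
Car9 and Car12 in the clusters with cartilage or tendon markers, in CPM of summed UMIs on a log axis with 95% Poisson intervals. Car9 is high in P10 cluster 26 (71.7 CPM) and P10 tendon fibroblast-like cells (83.7 CPM), and Car12 in 8-week clusters 0 (139 CPM) and 15 (181 CPM).

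Of the other 12 carbonic anhydrase genes, Car1 and Car13, cytosolic isoforms encoded on chromosome 3 beside Car2 and Car3, were also higher in NP-like cells. Car1 stood at 15.4 CPM in 8-week NP-like cells against 0.183 CPM in the other 8-week cells, and at 179 CPM in P10 NP-like cells against 3.72 CPM in the other P10 cells. Its age ratio in NP-like cells was -3.54 (-3.68 to -3.41) on the log2 scale, the opposite direction to Car2. It was highest in P10 cluster 18, at 317 CPM, and in the shared cluster 5 it was 10.8 CPM in 8-week against 58.3 CPM in P10 cells. Car13 had log2 ratios of 2.16 and 2.46 between NP-like cells and the rest at 8 weeks and P10.

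Car5b, a mitochondrial isoform, stood at 19.5 CPM in 8-week NP-like cells and 8.45 CPM in P10 NP-like cells. In chondrocyte-like cells it stood at 29.3 CPM at 8 weeks against 3.85 CPM at P10, a log2 ratio of 2.93 (2.74 to 3.12). Car8, a family member that lacks catalytic activity, resembled Car12 in being nearly absent from NP-like cells, at 0.341 CPM in 8-week NP-like cells against 31.4 CPM in the other 8-week cells. In hypertrophic chondrocyte-like cells it stood at 70.7 CPM at 8 weeks and 106 CPM at P10. The membrane isoform gene Car14 reached 56.7 CPM in 8-week cluster 10 and 30.9 CPM in P10 Schwann-like cells. At least 2-fold higher in NP-like cells than in the rest were 2 of the 6 other family genes with enough UMIs at 8 weeks and 3 of 5 at P10, and 3 and 1 were lower. Of all genes 15.7% were higher and 18.7% lower at 8 weeks, and 17.0% and 19.0% at P10.

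**Figure D5:**
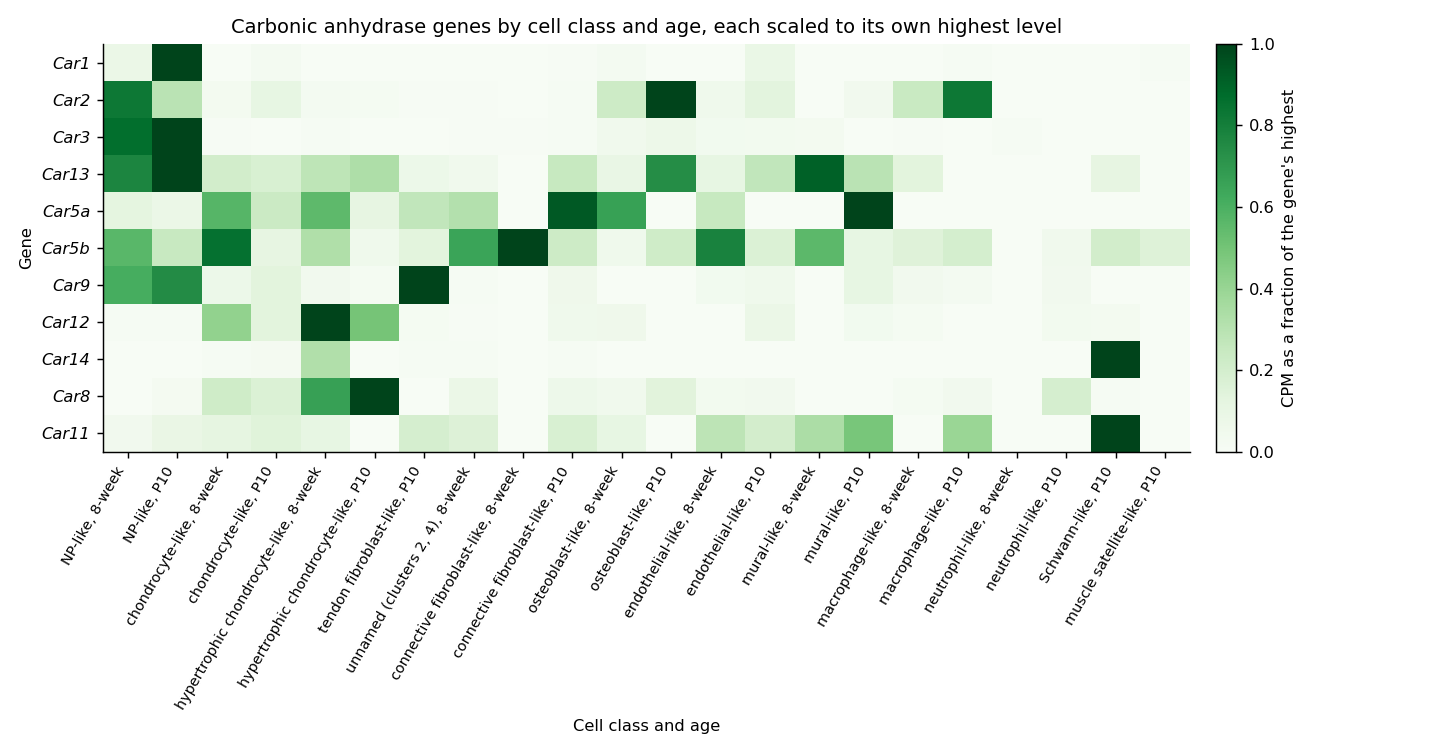
Carbonic anhydrase genes with at least 100 UMIs by class and age, each gene scaled to its own highest CPM, so that colours compare cells within a gene and not genes with each other. Car1, Car2, Car3 and Car13 are higher in NP-like cells than in all other cells together at both ages. Car1 is much lower in 8-week NP-like cells (15.4 CPM) than in P10 NP-like cells (179 CPM). Car2 peaks in P10 osteoblast-like cells (42.8 CPM), where 18 of 23 UMIs came from 1 cell. In NP-like cells Car2 stands at 35.4 CPM at 8 weeks and 12.5 CPM at P10. Car8 and Car12 share high values in cartilage classes.

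Genes that supply or use the products of these enzymes were read from lists. Of 19 HIF targets and glycolysis genes, all with enough UMIs, 11 were at least 2-fold higher and 2 lower in 8-week NP-like cells than in the rest, with a median log2 ratio of 1.56 against 0.18 over all genes, of which 15.7% were higher and 18.7% lower. At P10 15 were higher and 2 lower, with a median of 1.22 against 0.13 over all genes, of which 17.0% were higher and 19.0% lower. Pgk1, a glycolytic enzyme, had log2 ratios of 2.18 at 8 weeks and 1.09 at P10, and the glucose transporter gene Slc2a3 of 2.28 and 3.04. Hk2, the hexokinase gene, was lower in NP-like cells, at -2.60 and -1.02. The other gene at least 2-fold lower was Vegfa at 8 weeks (-1.19) and P4ha1 at P10 (-1.48). Between ages, 1 of the 19 (Pfkfb3, 1.55) was at least 2-fold higher in 8-week NP-like cells and none was lower, with a median of -0.42 against 0.35 over all genes, of which 15.2% were higher and 2.83% lower. Car9, at -0.29, and the median of this list both stood below the median gene in that age comparison.

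Of 12 proton and lactate export genes, 7 had enough UMIs and 3 were at least 2-fold higher and 1 lower in NP-like cells at each age, with median log2 ratios of 0.79 at 8 weeks and 0.92 at P10, beside the same shares and medians of all genes. The lactate transporter gene Slc16a3 (MCT4) stood at 103 CPM in 8-week NP-like cells against 36.1 CPM in the other 8-week cells, and at 258 CPM in P10 NP-like cells against 109 CPM in the other P10 cells. Between ages its log2 ratio in NP-like cells was -1.32 (-1.40 to -1.24). Bsg, the chaperone of these transporters, had log2 ratios of 1.55 at 8 weeks and 0.72 at P10 between NP-like cells and the rest. Of 15 bicarbonate and anion transport genes, 8 had enough UMIs at 8 weeks, with 2 higher and 1 lower in NP-like cells, and 7 at P10, with 2 higher and 2 lower. Their medians were -0.23 at 8 weeks and -0.18 at P10, against 0.18 and 0.13 over all genes, and their called shares stand beside 15.7% higher and 18.7% lower at 8 weeks and 17.0% and 19.0% at P10. The chloride and bicarbonate channel gene Cftr had 302 UMIs (6.87 CPM) in 8-week NP-like cells against 6 UMIs in the other 8-week cells. Between ages Cftr (2.21) and the sulfate transporter gene Slc26a2 (1.65) were at least 2-fold higher in 8-week NP-like cells among 6 genes with enough UMIs, with a median of 0.78 against 0.35 over all genes, of which 15.2% were higher. Of 9 acid sensor genes, 3 had enough UMIs at 8 weeks and 4 at P10, and at each age 3 were lower in NP-like cells and none higher, with medians of -3.77 and -1.79, where 18.7% of all genes were lower at 8 weeks and 19.0% at P10.

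WPRE4, a sequence listed with the genes, was used to divide the NP-like cells at 10 UMIs. What it reports is not given in the sources used here, and the threshold was set in earlier work on these data. At 8 weeks Car3 stood at 19657 CPM in the 1289 WPRE4-high cells against 16282 CPM in the 1016 WPRE4-low cells, a log2 ratio of 0.27. Car9 stood at 57.0 CPM in WPRE4-high against 42.7 CPM in WPRE4-low cells, a log2 ratio of 0.42 (0.29 to 0.54). Car2 stood at 35.9 CPM in WPRE4-high against 34.6 CPM in WPRE4-low cells, and the interval of its log2 ratio, -0.10 to 0.20, covers no difference. With the cells divided at the median of WPRE4 per UMI instead, the ratio of Car2 was 0.30. Median depth was 15449 UMIs in WPRE4-high and 15480.5 UMIs in WPRE4-low cells. No member passed 2-fold, where 0.0990% of genes were higher and 0.801% lower. At P10 Car3 stood at 22525 CPM in 204 WPRE4-high cells against 17483 CPM in 101 WPRE4-low cells, a log2 ratio of 0.37, and Car9 had a ratio of 0.16 (-0.16 to 0.49). There the depths differed, with medians of 18356.5 and 14478 UMIs, and their part in the P10 ratios was not tested. The background at P10 was 0.432% higher and 0.116% lower.

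Across the 22 sums of a class at an age with at least 20 cells, the genes most like each member were listed by Pearson correlation of log2(CPM + 1) among 11114 genes. These sums come from 2 libraries and may share free RNA, which was not estimated, so the correlations are descriptions. Car3 was most like Plb1 (0.92), Ranbp3l, T, Krt19 and Serpina1e (0.84). Car12 was most like Fgg (0.91), Prdm6, Syt8, Prkg2 and Cpa6 (0.86). Car9 was most like Map3k21 (0.78), Aldoa, Acot7, Mif and Celf4 (0.76), and Car2 most like Dnajc15 (0.77), Ikzf2, Wwc1, Pltp and Zfp984 (0.71). Among the members Car2 and Car3 had a correlation of 0.52 and Car3 and Car9 of 0.21, and Car12 had -0.16 with Car3.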

How the data were processed

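Single-cell RNA was measured in 2 libraries, 8-week and P10. The authors deposited raw UMI counts per gene and cell barcode, per the file headers. The submitters' processing notes name Cell Ranger 3.1.0, Seurat 3 and the builds mm10 and GRCm38, without roles. Gene names come from the deposited feature lists, gene positions from those names in a GRCm38 annotation, and promoters from RefSeq (GRCm38.p6).

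The libraries held 7597 barcodes with 115097999 UMIs at 8 weeks and 7690 barcodes with 143203550 UMIs at P10. Kept cells had 500 or more genes, 1000 or more UMIs and a mitochondrial share no higher than 15%. Scrublet called 131 doublets at 8 weeks (2.02%), which were removed, and 0 at P10, where the calling has not worked, so cells carrying markers of another class are reported beside the results. Cells were clustered with scanpy 1.11.5 (2000 variable genes without carbonic anhydrases, 30 components, 15 neighbours, Leiden resolution 1, igraph 0.11.9) into clusters named from marker lists. A name needed at least 3 markers. Because names were rebuilt, they may differ from the study's.

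CPM is the sum of a gene's UMIs per 1000000 UMIs of the same cells. UMIs were not divided by length, so levels compare cells and not genes. Intervals (scipy 1.17.1) are exact Poisson for levels, exact conditional binomial for ratios and Clopper-Pearson for shares, and cover counting error only. Ratios use genes with at least 100 UMIs in both groups together, and a gene counts as higher or lower from 2-fold. Shares of cells were repeated with cells thinned to 2000 UMIs (seed 7). A 0 is read as allowing up to 3 counts. The interval computation was tested on simulated Poisson counts, which lack the concentration of UMIs in few cells seen in some classes here.

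The 4 members are always named, and 5 genes per member by likeness. Any list gene with at least 100 UMIs could be named. Slc2a3, Hk2, Vegfa, P4ha1, Pfkfb3 and Cftr were not among the genes with most UMIs of their lists. They are given because of their ratios. Members and lists were chosen with earlier results of these data known. Alternatives covered cluster resolution, separate clustering, doublet scores, scaling to the median gene, cells carrying other markers, means per cell and thinning. No comparison was tested, since each age is 1 library.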

Additional observations from a re-analysis of the deposited data

Results flagged for a closer look

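The difference between ages ran in opposite directions in different classes for 2 members, and none of these differences was tested. Car2 had a log2 ratio of 8 weeks over P10 of 1.51 in NP-like cells and -1.92 in chondrocyte-like cells, 3.43 apart. Of the P10 chondrocyte-like Car2 UMIs, 76.0% lay in 8 cells carrying red-cell markers, and without them the levels were 1.20 CPM in 8-week and 1.09 CPM in P10 chondrocyte-like cells. Car3 had -0.21 in NP-like cells and 1.59 in chondrocyte-like cells, a gap of -1.80. Against hypertrophic chondrocyte-like cells, at 2.08, the gap of Car3 was -2.29. Beside both, neutrophil-like cells had 264 CPM of Car3 at 8 weeks and 19.9 CPM at P10, and the part of free RNA in these gaps was not tested.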

How the results depend on the processing

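No paired analysis was possible because no file maps cells to the 4 samples of an age. Of 92 values under alternatives for the main comparisons, 47 stayed within the interval of the reported value, and 45 moved. The sign changed in 1 of the 92, the P10 WPRE4 ratio of Car9 given below, whose reported interval covers no difference. All values here are log2 ratios.

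Within NP-like cells, 8 weeks over P10, Car3 (reported -0.21) was -0.30 at resolution 0.5, -0.19 at resolution 2, -0.17 with ages clustered separately, -0.26 with a stricter doublet score, -0.56 relative to the median gene, -0.24 without cells carrying other markers, -0.25 as a mean per cell and -0.26 thinned. Relative to the median gene Car2 was 1.15 and Car9 -0.64.

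For NP-like cells over the rest at 8 weeks, at resolution 0.5, resolution 2 and separate clustering, Car2 was 4.06, 3.77 and 3.44, Car3 5.47, 4.93 and 4.63, and Car9 3.28, 3.65 and 3.67. As a mean per cell and thinned, Car2 was 5.37 and 5.56, Car3 6.98 and 7.0, and Car9 3.40 and 3.47, and Car12 thinned was -7.06. Car3 was also 6.73 with stricter doublets, 6.46 relative to the median gene and 7.45 without carrying cells. At P10 Car2 was 3.31 without carrying cells, 2.28 as a mean per cell and 2.78 thinned. Car3 at P10, in the order of settings given for its age ratio, was 7.69, 8.37, 9.44, 9.95, 8.49, 10.50, 9.34 and 9.38. Car12 at P10 was -6.30 at resolution 0.5 and -5.43 with stricter doublets, and had no thinned value.

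With NP-like cells split at the median of WPRE4 per UMI, Car2 was 0.30 and Car3 0.35 at 8 weeks, and at P10 Car3 was 0.58 and Car9 -0.041, within the interval of the reported 0.16. Direction changed in single classes, 8 weeks over P10. Chondrocyte-like Car2 (-1.92) was 1.90 at resolution 0.5 and 0.21 without carrying cells, and chondrocyte-like Car9 (-0.85) was 1.58 at resolution 0.5 and 0.053 thinned. Hypertrophic chondrocyte-like Car12 (1.01) was -0.94 at resolution 2 and -1.18 with separate clustering. Car3 in connective fibroblast-like cells (-1.22) was 2.58 without carrying cells, and in osteoblast-like cells (-0.45) it was 0.99 without them and 0.13 thinned. Apart from the alternatives' own construction, the cause was not tested. The removals of single Car3 cells and of carrying cells in named classes were chosen after seeing the data. Car12 within NP-like cells, and Car2 and Car12 in the P10 WPRE4 comparison, had under 100 UMIs and no alternatives. At a minimum of 20 UMIs, 4.88% of genes were at least 2-fold lower in 8-week NP-like cells, against 2.83%.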
